A study of Homo sapiens with 6 samples.

Results

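The genes described here encode the machinery that starts transcription in human cells: the subunits of RNA polymerases I, II and III, the Mediator complex, the TATA-binding protein associated factors (TAFs) and the general transcription factors of the GTF2 series. They are the protein-coding genes whose symbol starts with POLR1, POLR2, POLR3 or GTF2, or with MED or TAF followed by a digit. This rule uses names and no measured value, but the genes were chosen with earlier results of these data known. The rule found 116 of the 58735 genes in the count table, which holds 19951 protein-coding genes. Of these, 100 had enough counts to be tested. The 16 that did not were 13 TAF11L genes with 0 counts in all 6 libraries, and TAF1L, TAF7L and GTF2A1L, each with at most 9 counts in any library.

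The measurements were RNA-seq read counts per gene in RPE-1, an immortalised line of human retinal pigment epithelial cells. The line carries GFP on CETN2, a protein that marks centrioles. It also carries a PLK4 gene (the kinase that starts centriole duplication) that doxycycline switches on through rtTA. The siControl group is 3 libraries from cells given a scramble siRNA and the siSON group is 3 libraries from cells given an siRNA against SON. All 6 received 1 µg/mL doxycycline, so PLK4 was induced in the controls as well, and the labels do not say whether the line is 1 clone or whether replicates are separate cultures.

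SON is a large protein of nuclear speckles that helps the spliceosome remove introns with weak splice sites. RNA polymerase I transcribes ribosomal RNA, polymerase II transcribes messenger RNA, and polymerase III transcribes transfer RNA and other short RNAs. Polymerase II is brought to promoters by general factors: TFIID, built from the TATA-binding protein TBP and TAFs, binds the core promoter, TFIIA and TFIIB stabilise it there, TFIIF and TFIIE join with the polymerase, and TFIIH opens the DNA. Mediator bridges DNA-bound activators and polymerase II through a tail, a middle and a head, and a detachable kinase module can block that contact.

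SON was at 295, 313 and 284 CPM (counts scaled to a common library size by the TMM method) in the siControl libraries and at 68.0, 70.0 and 65.0 CPM in the siSON libraries. The siSON mean, 67.6 ± 2.49 CPM (SD, n = 3), was 22.8% of the siControl mean, 297 ± 14.5 CPM. The log2 fold change was -2.14 (SE 0.06), and an exact 2-sided permutation test gave p = 0.1, the smallest that 3 libraries against 3 allow. Library totals ran from 54572365 to 69764836 counts, so that 3 counts corresponded to 0.0402 to 0.0590 CPM. In both groups replicate 1 stood apart: divided by its degrees of freedom, chi-square was 16.6 to 23.6 against the other replicates and 6.68 between replicates 2 and 3. All 5 markers of the line (KRT8, KRT18, KRT7, VIM, TERT) were present in both groups. Of 8 retinal pigment epithelium markers, 5 had a mean of at least 1 CPM in siControl and 4 in siSON libraries, TYR was at 0 and RLBP1 and RPE65 were near 0, and their summed level was 87.2 to 95.2 CPM in siControl and 192 to 224 CPM in siSON libraries. Among them PAX6 went from a mean of 39.8 to 127 CPM, PMEL from 2.06 to 0.200 CPM and RPE65 from 0.144 CPM to 0. The 8 markers of other cell types summed to 2.56 to 3.57 CPM in siControl and 0.689 to 1.22 CPM in siSON libraries, with CD3E at 0. The part that the shift of pigment epithelium markers or replicate 1 plays in the results was not tested.

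Several of these genes have near-identical copies, and their counts depend on how reads that fit more than 1 place were assigned, which is not given in the sources used here. Coding sequences of the POLR2J and GTF2IRD2 copies are shown because these genes are among those that changed. The stretches come from GENCODE 29 transcripts, read 5′ to 3′, and capitals mark bases that differ from the first gene of the set. Coding bases 361 to 420 of the POLR2J set read:
POLR2J: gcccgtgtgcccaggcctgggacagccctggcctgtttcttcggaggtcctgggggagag
POLR2J2: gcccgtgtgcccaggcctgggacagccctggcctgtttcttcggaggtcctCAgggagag
POLR2J3 (ENSG00000285437): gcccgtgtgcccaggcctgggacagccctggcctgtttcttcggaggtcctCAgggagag
Over all 474 coding bases, POLR2J2 differed from POLR2J at 7 and this POLR2J3 gene at 5. Coding bases 1801 to 1860 of GTF2IRD2 and its copy read:
GTF2IRD2: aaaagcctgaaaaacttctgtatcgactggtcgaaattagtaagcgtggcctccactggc
GTF2IRD2B: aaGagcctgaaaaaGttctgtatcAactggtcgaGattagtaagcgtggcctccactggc
These 2 genes differed at 11 of 2847 coding bases. A read that covers none of the differing bases fits each copy equally well. In all, 10 tested genes had at least 10% of their 50-base words in transcripts of a gene elsewhere: POLR2J, POLR2J2, both POLR2J3 genes, MED27, GTF2H2, GTF2H2C, GTF2I, GTF2IRD2 and GTF2IRD2B. Another source of uncertainty was overlap with a neighbour on the same strand, which covered at least 10% of the exon bases of 11 tested genes. Among these 11 were MED26 (41.9%) and TAF9 (20.6%). The strand setting of the counting is not given either, so overlap on the other strand may matter too. That overlap covered 36.9% of the exon bases of MED11, 28.3% of TAF6, 79.6% of POLR2I and 58.3% of MED31.

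After SON knockdown the machinery moved broadly but mostly by small amounts. Of the 100 tested genes 77 changed (77.0%; edgeR, adjusted p under 0.05), 48 upward and 29 downward, while 71.7% of all 16591 genes tested and 77.4% of the protein-coding genes changed. The share was thus near that of other protein-coding genes. Changes of at least 2-fold were found for 12 genes (12%), against 29.3% of all genes and 27.3% of protein-coding genes. The 3 that rose at least 2-fold were POLR3A, MED6 and MED27 (8.72% of all genes and 8.62% of protein-coding genes did so). The 9 that fell at least 2-fold were MED11, POLR3G, MED12, GTF2H3, MED24, MED15, POLR2J2 and the 2 POLR2J3 genes (20.5% of all genes and 18.7% of protein-coding genes did so). Of these, POLR2J2 and 1 of the POLR2J3 genes passed the low-count filter with fewer siSON than siControl libraries. That POLR2J3 gene lies within the span of the other on the same strand, so their falls may not be separate. The median log2 fold change was 0.18 over the tested genes, against -0.03 over all genes and 0.03 over protein-coding genes. The median size of the change was 0.46, against 0.63 over all genes. Groups did not overlap for 77 genes, against 75.1% of all genes and 79.9% of protein-coding genes tested. Without the 10 genes with copies, 69 of 90 changed, 44 upward and 25 downward.

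The balance of rises over falls depended on the scaling. Rises and falls of single genes are given below as log2 fold changes. With library size alone in place of TMM, 36 rose and 37 fell (49.3% upward in place of 62.3%) and the median was -0.02, while 12 genes fell at least 2-fold and 0 rose so far. Over all genes that scaling changed the log2 fold change by a median of -0.20 per gene and turned their split from 5834 up and 6054 down to 4441 up and 7351 down. Under cyclic loess 47 rose and 29 fell, with a median of 0.15; the change per gene had a median of 0.14 over all genes, and the median of all genes went from -0.03 to 0.04. Among genes that kept their call and direction, the log2 fold change moved by over 1.5 times for 24 with library size alone and for 15 under cyclic loess, among them POLR2A (-0.91), POLR2E (0.36), MED13L (0.44) and TAF15 (0.15) under cyclic loess. The measurements are relative to each library's RNA: in bulk samples fewer cells that express a gene and less RNA per cell cannot be told apart, and a change in total RNA per cell is not seen.

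**Figure D1:**
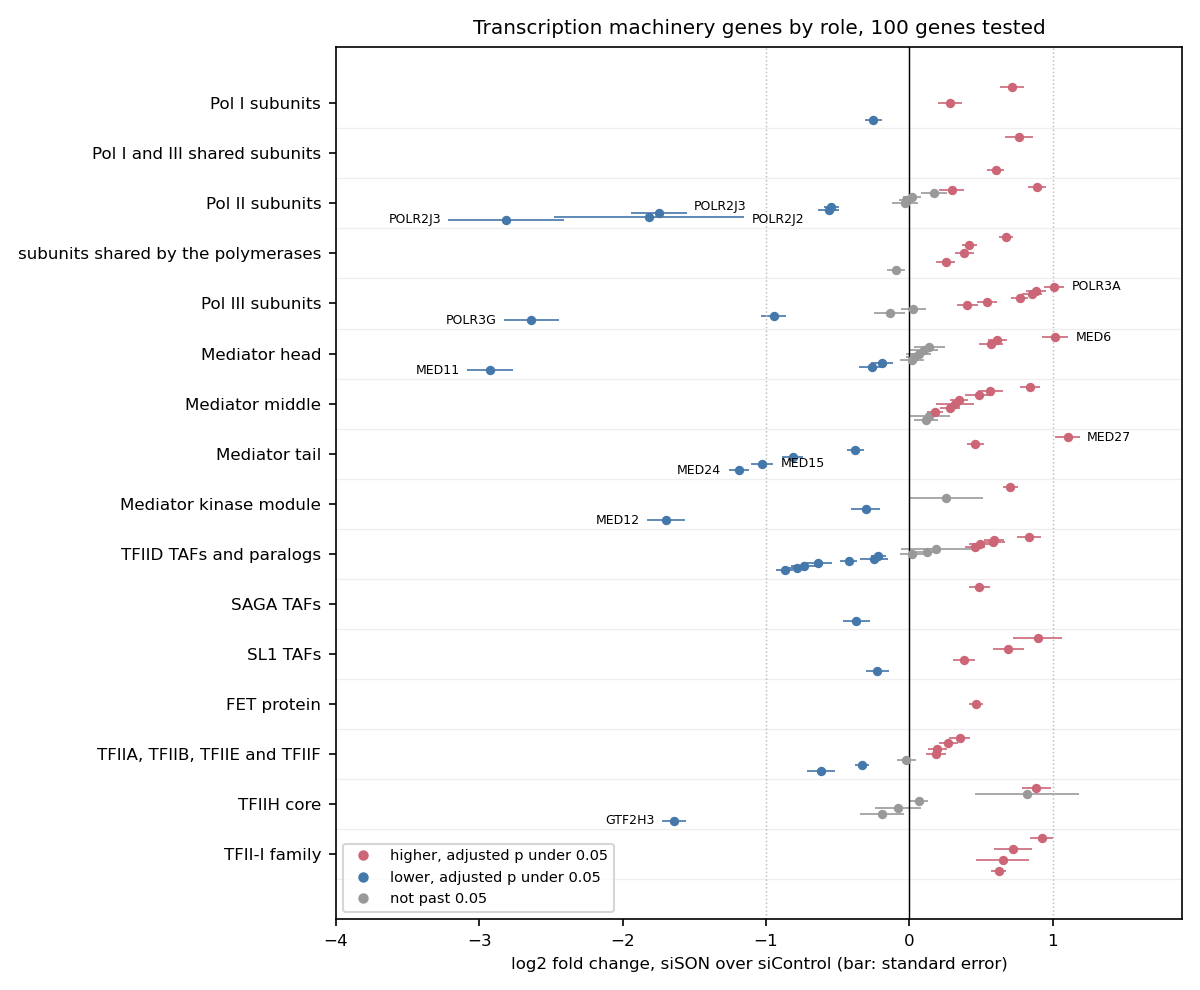
Log2 fold change (siSON over siControl, horizontal axis, bars the standard error) of each of the 100 tested genes, in rows by role, with red points for genes called higher, blue for lower and grey for those that did not pass 0.05. Most points lie between the dotted lines at -1 and 1, with MED11, POLR3G and the POLR2J copies far to the left and POLR3A, MED6 and MED27 just beyond the right-hand line.

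Of the 11 RNA polymerase II subunits 5 fell and 2 rose, where 36.5% of all genes tested fell and 35.2% rose, and the median log2 fold change was -0.03. Of the 5 falls 4 were POLR2J and its near-identical copies. The split was 8 down and 1 up with library size alone, and 6 down and 2 up under cyclic loess. POLR2A, the catalytic subunit whose C-terminal tail coordinates capping, splicing and 3′ end formation, was at 446, 439.8 and 399 CPM in siControl and at 294, 299.5 and 287 CPM in siSON libraries. No siSON library reached the lowest siControl library (log2 fold change -0.55, SE 0.05, adjusted p = 3.65e-06). POLR2B, which forms the other side of the active centre, did not pass the test (log2 fold change -0.02, adjusted p = 0.689), and its libraries overlapped at 140.4, 143 and 147 CPM against 135, 145 and 143 CPM. It was called lower with library size alone (-0.22, adjusted p = 0.0038) and under cyclic loess (-0.31, adjusted p = 0.00024). POLR2C, an assembly subunit, went the other way, from 49.4, 51.2 and 52.9 CPM to 99.2, 89.3 and 95.8 CPM. Its groups were far apart (log2 fold change 0.89, SE 0.06, adjusted p = 1.85e-07). POLR2D, POLR2G and POLR2I did not pass the test, with log2 fold changes of -0.03, 0.02 and 0.17. POLR2D was called lower with library size alone (-0.23) and under cyclic loess (-0.22), POLR2G was called lower with library size alone (-0.18), and POLR2I was called higher without siSON replicate 1 (0.23, adjusted p = 0.0401). POLR2M, a polymerase-associated protein rather than a core subunit, was higher by 0.29, a call lost without siControl replicate 1 (0.22, adjusted p = 0.0546) and with library size alone (0.10).

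The POLR2J genes were called lower, but their counts are subject to the shared sequence shown above, and the low-count filter favoured a fall for 2 of them. POLR2J2 passed it through the siControl libraries alone, and ENSG00000285437 was past it in 3 siControl and 2 siSON libraries. POLR2J, the main gene of the set and the assembly partner of POLR2C, was at 35.3, 33.0 and 30.6 CPM in siControl and 22.0, 22.7 and 22.3 CPM in siSON libraries (log2 fold change -0.56, SE 0.07). The POLR2J3 gene ENSG00000168255 was at 3.04, 2.61 and 2.33 CPM and then 0.810, 0.853 and 0.708 CPM (log2 fold change -1.75, SE 0.19). The other POLR2J3 gene, ENSG00000285437, was at 1.85, 1.75 and 0.776 CPM and then 0.258, 0.194 and 0.157 CPM (log2 fold change -2.81, SE 0.40). It lies within the span of ENSG00000168255 on the same strand, so the counts of both may not be separate. Same-strand neighbours cover 21.9% of its exon bases and 76.2% of those of ENSG00000168255. POLR2J2 had 16, 17 and 32 counts in siControl and 8, 6 and 0 counts in siSON libraries (log2 fold change -1.82, SE 0.66, adjusted p = 0.0287). Its call was lost without siControl replicate 3 (-1.50, adjusted p = 0.109), without siSON replicate 2 (-2.06, adjusted p = 0.0537) and without siSON replicate 3 (-1.26, adjusted p = 0.0650), and under cyclic loess (-1.13, adjusted p = 0.110). In the siControl libraries the copies were far below the main gene per kilobase of exon, at 0.149 CPM for POLR2J2 and 24.3 CPM for POLR2J.

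Of the 5 subunits that polymerases I, II and III share, 4 rose, where 35.2% of all genes tested and 40.3% of protein-coding genes rose. POLR2H did not pass the test (log2 fold change -0.09, adjusted p = 0.219). With library size alone 3 rose and 1 fell, and under cyclic loess 2 rose and 1 fell. POLR2E, the largest of the shared subunits, was at 157, 154 and 153 CPM in siControl and 255, 238 and 248 CPM in siSON libraries, so the groups were well separated (log2 fold change 0.68, SE 0.05, adjusted p = 3.04e-07). POLR2L, a small zinc-binding subunit needed for assembly, rose by 0.42, POLR2K by 0.38 and POLR2F by 0.25. The rises of POLR2E and POLR2K were called under every scaling tried, while that of POLR2L was lost under cyclic loess (0.11) and that of POLR2F with library size alone (0.05) and under cyclic loess (0.13), and POLR2H was called lower under both. POLR2L had the highest siControl level per kilobase of exon of all tested genes of the machinery, 138 CPM, against a median of 6.44 CPM over those genes.

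In polymerase I the chains that form the active site moved in opposite directions. POLR1A, the catalytic chain, was at 90.4, 85.8 and 80.5 CPM in siControl and 71.3, 73.0 and 71.4 CPM in siSON libraries (log2 fold change -0.25, SE 0.06, adjusted p = 0.00249). POLR1B, the chain that pairs with POLR1A there, was at 22.4, 20.0 and 20.9 CPM and then 38.1, 31.8 and 33.8 CPM (log2 fold change 0.71, SE 0.08, adjusted p = 1.62e-05). POLR1E was higher by 0.28, a call lost without siControl replicate 2 (0.20, adjusted p = 0.0743) and with library size alone (0.09). Both subunits that polymerases I and III share, POLR1C and POLR1D, rose, by 0.76 and 0.60, and both rises held under every scaling. Each is known as a gene of Treacher Collins syndrome, a craniofacial disorder of ribosome production.

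RNA polymerase III subunits moved in both directions. Of its 10 subunits 6 rose, 2 fell and POLR3F and POLR3K did not pass the test (log2 fold changes -0.14 and 0.03), with a median of 0.47. Over all genes tested 35.2% rose and 36.5% fell. POLR3F was called lower with library size alone (-0.33), making 6 up and 3 down, and without siSON replicate 1 (-0.25, adjusted p = 0.0328). POLR3A, the catalytic subunit, was at 67.9, 62.2 and 66.7 CPM in siControl and 144, 130.0 and 122 CPM in siSON libraries. All siSON libraries were far above the siControl libraries (log2 fold change 1.01, SE 0.07, adjusted p = 2.01e-07). POLR3B, its partner in the active centre, rose by 0.54 (SE 0.07), and POLR3C, POLR3E and POLR3D rose by 0.85, 0.88 and 0.40.

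The 2 polymerase III subunits that fell are alternatives for the same place in the enzyme. POLR3G, known as the form of stem cells and many tumours, sits with POLR3C and POLR3F in the subcomplex that contacts the initiation factor, and POLR3GL is the form of most differentiated tissues. POLR3G (chromosome 5, 90471748 to 90514553, plus strand, GRCh38) was at 9.97, 7.30 and 8.66 CPM in siControl and 1.34, 1.78 and 1.04 CPM in siSON libraries. No siSON library came near a siControl library: the siSON mean was 16.1% of the siControl mean (log2 fold change -2.64, SE 0.19, adjusted p = 3.16e-07). POLR3GL was at 17.4, 15.4 and 16.8 CPM and then 8.55, 8.67 and 8.54 CPM (log2 fold change -0.95, SE 0.09, adjusted p = 1.75e-06). POLR3GL shares 21.2% of its exon bases with a neighbour on the same strand, so part of its count may belong to that gene. Per kilobase of exon POLR3GL was the higher of the 2 in both groups, at 9.19 against 2.15 CPM in siControl and 4.77 against 0.346 CPM in siSON libraries.

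**Figure D2:**
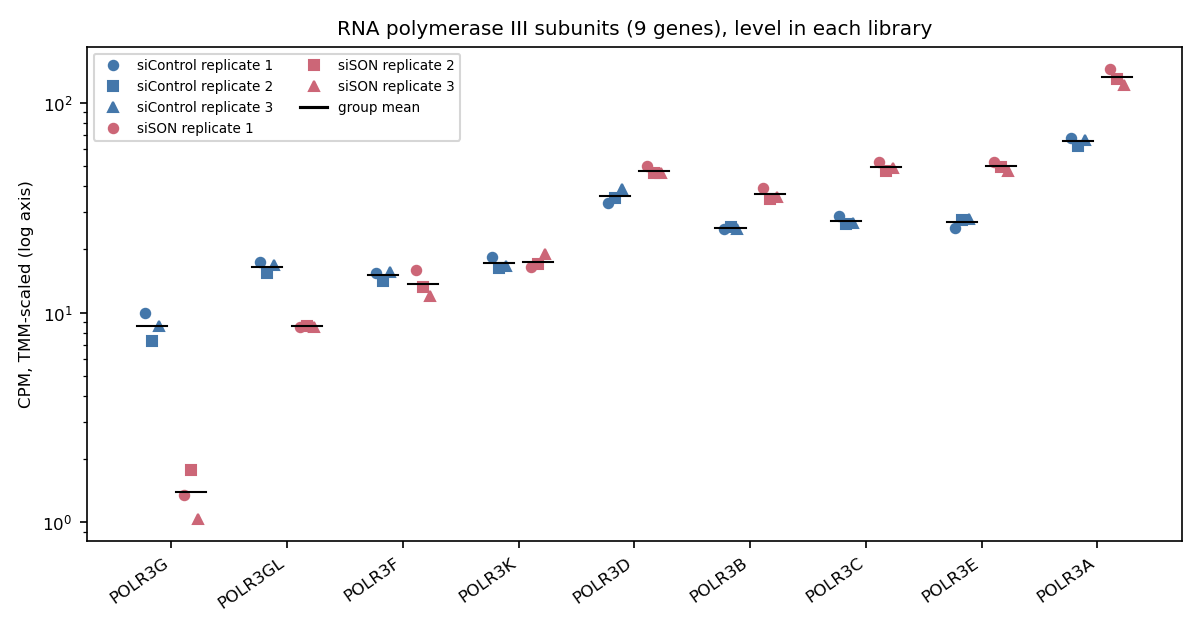
Level of 9 polymerase III subunits in each library (CPM, log axis), with siControl libraries in blue, siSON libraries in red, a marker shape for each replicate and a line at each group mean. POLR3G and POLR3GL lie lower in all 3 siSON libraries, whereas POLR3A, POLR3B, POLR3C, POLR3D and POLR3E lie higher.

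The Mediator head, which contacts polymerase II directly, held both the deepest fall and one of the largest rises. Of its 11 genes 3 rose and 3 fell, with a median of 0.06, where 35.2% of all genes tested rose and 36.5% fell. MED11, a small head subunit (chromosome 17, 4731428 to 4733610, plus strand), was at 7.91, 8.30 and 8.47 CPM in siControl and 0.862, 1.32 and 1.08 CPM in siSON libraries. The siSON mean was 13.2% of the siControl mean, and the log2 fold change of -2.92 (SE 0.16, adjusted p = 3.35e-08) was the largest fall of any tested gene of the machinery. MED6, a conserved head subunit, was at 14.5, 14.0 and 13.5 CPM and then 31.6, 25.4 and 28.1 CPM (log2 fold change 1.02, SE 0.09, adjusted p = 1.51e-06). MED8 and MED20 rose by 0.61 and 0.57. MED17, the scaffold of the head, did not pass the test at 6.89, 7.49 and 7.44 CPM against 8.25, 7.41 and 7.69 CPM (log2 fold change 0.10, adjusted p = 0.398), though it was called higher under cyclic loess (0.36, adjusted p = 0.0089).

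MED18 and MED22 were lower by 0.26 and 0.19 on the log2 scale. The MED18 call was lost without siControl replicate 3, siSON replicate 1 or siSON replicate 3 (-0.25 to -0.19, adjusted p = 0.0528 to 0.0676), and under cyclic loess (-0.13, adjusted p = 0.191). The MED22 call was lost without siControl replicate 2, siControl replicate 3, siSON replicate 1 or siSON replicate 2 (-0.21 to -0.14, adjusted p = 0.0754 to 0.114), and with no low-count filter. MED19, MED28, MED29 and MED30 did not pass the test, with log2 fold changes of 0.02, 0.06, 0.03 and 0.14. MED29 was called lower with library size alone (-0.16) and under cyclic loess (-0.14), and MED30 was called higher under cyclic loess (0.41, adjusted p = 0.0058).

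In the Mediator middle, which links head to tail, 7 of 9 genes rose and 0 fell, with a median of 0.32. Over all genes tested 35.2% rose and 36.5% fell. The count of 7 rested on small changes: with library size alone 3 rose and 0 fell, and under cyclic loess 6 rose and 0 fell. MED10, a conserved subunit of the middle, was at 23.4, 25.6 and 23.7 CPM in siControl and 43.9, 41.8 and 44.5 CPM in siSON libraries (log2 fold change 0.84, SE 0.07, adjusted p = 6.97e-07). MED9 rose by 0.56 and MED31 by 0.48. MED1, the contact of nuclear hormone receptors, was at 82.7, 86.3 and 90.7 CPM and then 107, 105 and 117 CPM (log2 fold change 0.34, adjusted p = 0.000419), a call lost with library size alone (0.15, adjusted p = 0.058) and under cyclic loess (0.11, adjusted p = 0.12). MED14, the backbone that ties all parts together, was higher by 0.18 (adjusted p = 0.0147). Its sign turned with library size alone (-0.021) and under cyclic loess (-0.0086), and its call was lost without siControl replicate 3 (0.14, adjusted p = 0.0803). MED4 rose by 0.28 and lost its call with library size alone (0.09). MED26, which binds elongation factors, was higher by 0.32 (adjusted p = 0.0477), and the call was lost with library size alone and in every fit that left out a library other than siSON replicate 1 (adjusted p = 0.0627 to 0.210). MED7 and MED21 did not pass the test, with log2 fold changes of 0.14 and 0.11, though MED7 was called higher under cyclic loess (0.40) and MED21 without siSON replicate 1 (0.20).

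The Mediator tail, the part that activators bind, changed in all 6 of its genes, 4 downward and 2 upward, under each scaling tried. Of all genes tested 71.7% changed. Of protein-coding genes 77.4% changed, 37.1% downward and 40.3% upward. The tail's median of -0.60 was the lowest of the 16 role groups. MED24 was at 62.4, 62.0 and 58.5 CPM in siControl and 26.0, 28.9 and 25.2 CPM in siSON libraries (log2 fold change -1.19, SE 0.07, adjusted p = 6.18e-08). MED15, a contact of the lipid regulator SREBP and of SMAD proteins, was at 120.7, 113 and 112 CPM and then 63.3, 55.4 and 50.9 CPM (log2 fold change -1.03, SE 0.08, adjusted p = 4.20e-07). The siSON libraries of both genes were well below all siControl libraries. MED25 and MED16 fell by 0.81 and 0.38 on the log2 scale. MED27 was at 21.5, 19.9 and 19.5 CPM and then 48.8, 40.3 and 41.5 CPM (log2 fold change 1.10, SE 0.09, adjusted p = 5.20e-07), though 22.9% of its 50-base words also occur in the transcript of CRSP8P. MED23, which relays signals from the MAP kinase target ELK1, rose from 51.2, 49.6 and 48.3 CPM to 70.5, 68.7 and 65.9 CPM (log2 fold change 0.46, SE 0.06, adjusted p = 2.51e-05).

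The kinase module split between paralogs. MED12, which activates the kinase (chromosome X, 71118556 to 71142454, plus strand), was at 56.4, 57.2 and 58.5 CPM in siControl and 19.1, 20.5 and 13.3 CPM in siSON libraries. Its siSON mean was 30.8% of the siControl mean (log2 fold change -1.70, SE 0.13, adjusted p = 9.46e-07). Its paralog MED12L did not pass the test (log2 fold change 0.26, adjusted p = 0.393) at 0.645, 0.849 and 0.843 CPM against 1.10, 0.737 and 0.944 CPM, though it was called higher under cyclic loess (0.69, adjusted p = 0.0289). MED13, the link between the module and core Mediator, was at 46.8, 41.2 and 34.7 CPM and then 35.2, 32.6 and 31.5 CPM. These ranges overlapped, the only such case among the 77 changed genes, and the call (log2 fold change -0.30, adjusted p = 0.0188) was lost without siSON replicate 2 (-0.28, adjusted p = 0.0662) or siSON replicate 3 (-0.26, adjusted p = 0.0721). MED13L rose from 91.3, 97.4 and 93.4 CPM to 153, 147 and 159 CPM (log2 fold change 0.70, SE 0.05, adjusted p = 4.39e-07).

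**Figure D3:**
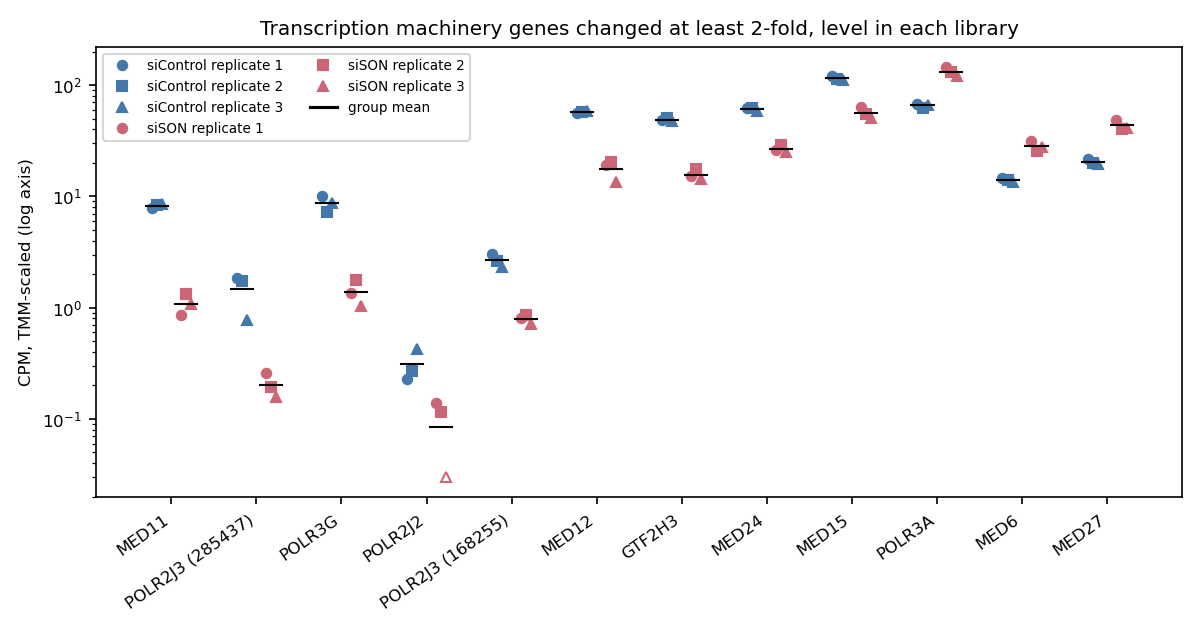
Level in each library (CPM, log axis) of the 12 genes that changed at least 2-fold, with siControl in blue, siSON in red and a line at each group mean. The open triangle marks the siSON replicate 3 library of POLR2J2, which had 0 counts and is drawn at a place of no value. The groups do not overlap for any of the 12 genes, but these were picked for their call and size of change. Their lack of overlap is therefore no separate result, and 75.1% of all genes tested show it.

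TFIID was mixed. Of the 15 TFIID TAFs and paralogs tested, out of 30 listed, 7 fell and 5 rose, with a median of 0.02. Over all genes tested 36.5% fell and 35.2% rose. Under cyclic loess 6 of the TFIID genes fell and 6 rose. TAF6, a histone-fold subunit of the TFIID core, was at 85.2, 88.8 and 84.3 CPM in siControl and 45.4, 49.6 and 46.3 CPM in siSON libraries (log2 fold change -0.87, SE 0.06, adjusted p = 1.80e-07). TAF1, the largest subunit, which reads acetylated histones, was at 36.7, 37.9 and 37.8 CPM and then 20.7, 22.2 and 22.4 CPM (log2 fold change -0.78, SE 0.07, adjusted p = 1.13e-06). Both genes had siSON libraries far below the lowest siControl library. TAF13, TAF3, TAF2 and TAF9 fell by 0.74, 0.64, 0.42 and 0.22 on the log2 scale. TAF5, the core scaffold, rose from 13.8, 14.4 and 14.3 CPM to 22.9, 27.1 and 25.8 CPM (log2 fold change 0.83, SE 0.08, adjusted p = 4.10e-06). TAF8, TAF12, TAF9B and TAF11 rose by 0.59, 0.58, 0.49 and 0.46.

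TAF4, a core subunit that activators contact, was lower by 0.25 on the log2 scale (adjusted p = 0.0415). That call was lost in each fit that left out a library other than siControl replicate 1 (adjusted p = 0.0596 to 0.142), and under cyclic loess (-0.058, adjusted p = 0.609). TAF7, TAF10 and TAF4B did not pass the test, with log2 fold changes of 0.12, 0.02 and 0.18, though TAF10 was called higher under cyclic loess (0.21). The germline paralogs TAF1L and TAF7L had 4, 1 and 1 counts and 5, 2 and 9 counts in siControl libraries, and 0, 1 and 0 counts each in siSON libraries.

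All 7 TAFs outside TFIID were called changed, where 71.7% of all genes and 77.4% of protein-coding genes were. Of the pair that serves the SAGA coactivator, TAF5L rose by 0.49 and TAF6L fell by 0.37 on the log2 scale, the latter not called under cyclic loess (-0.20, adjusted p = 0.0836). Of the 4 TAFs of SL1, the selectivity factor that brings polymerase I to ribosomal DNA, 3 rose: TAF1A by 0.90, TAF1C by 0.69 and TAF1B by 0.38, the last not called with library size alone (0.18). TAF1C, the subunit with the smallest adjusted p of these, was at 37.3, 35.5 and 28.8 CPM in siControl and 61.8, 52.7 and 49.3 CPM in siSON libraries, so every siSON library was above every siControl library. TAF1D was lower by 0.22 on the log2 scale, a call lost without siControl replicate 1 (-0.19, adjusted p = 0.0599) or siSON replicate 3 (-0.14, adjusted p = 0.126). TAF15, an RNA-binding protein related to EWSR1, rose from 161, 153 and 156 CPM to 221, 213 and 212 CPM (log2 fold change 0.46, SE 0.05, adjusted p = 5.75e-06).

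The factors that assemble with polymerase II at the promoter moved by less than 2-fold. Of the 7 tested genes of TFIIA, TFIIB, TFIIE and TFIIF, 4 rose and 2 fell, with a median of 0.18. Over all genes tested 35.2% rose and 36.5% fell. With library size alone, however, 0 of the 7 rose and 3 fell, and under cyclic loess 1 rose and 2 fell. The 2 falls with TMM were GTF2E1 and GTF2F1. GTF2E1, the large TFIIE subunit, was at 13.6, 11.7 and 13.6 CPM in siControl and 7.86, 8.57 and 8.93 CPM in siSON libraries (log2 fold change -0.62, SE 0.10, adjusted p = 0.000188). GTF2F1, the large TFIIF subunit, was at 134, 131 and 130.2 CPM and then 107, 105 and 103 CPM (log2 fold change -0.33, SE 0.05, adjusted p = 9.27e-05). Of their partners, GTF2E2 did not pass the test (-0.02) but was called lower with library size alone (-0.22, adjusted p = 0.0145), and GTF2F2 was higher by 0.35, not called with library size alone (0.15). GTF2A1 and GTF2A2 were higher by 0.27 and 0.19, and neither was called with library size alone or under cyclic loess. The GTF2A2 call was also lost without siControl replicate 1 (0.11, adjusted p = 0.141) or siControl replicate 2 (0.19, adjusted p = 0.0679). GTF2B, the single TFIIB chain, was higher by 0.18 (adjusted p = 0.0313). Its sign turned with library size alone (-0.012), and the call was lost without siControl replicate 2 or 3 or siSON replicate 2 or 3 (adjusted p = 0.0559 to 0.212).

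Within TFIIH, the complex that opens promoters and repairs DNA, GTF2H3 and GTF2H1 went in opposite directions. GTF2H3, a ring subunit (chromosome 12, 123633739 to 123662606, plus strand), was at 48.5, 50.9 and 47.6 CPM in siControl and 15.4, 17.6 and 14.2 CPM in siSON libraries. The groups were far apart (log2 fold change -1.64, SE 0.09, adjusted p = 2.47e-08). GTF2H1, a docking subunit, was at 72.3, 59.6 and 65.9 CPM and then 142, 112 and 112 CPM (log2 fold change 0.88, SE 0.10, adjusted p = 1.68e-05). GTF2H5, GTF2H2 and its copy GTF2H2C did not pass the test, with log2 fold changes of 0.06, -0.08 and -0.19, though GTF2H2C was called lower with library size alone (-0.39). GTF2H4 had 21, 12 and 26 counts in siControl and 30, 30 and 20 counts in siSON libraries, and 79.0% of its exon bases lie in exons of VARS2 on the same strand. It did not pass the test (log2 fold change 0.82, adjusted p = 0.0624) although its groups did not overlap in CPM, and it was called higher under cyclic loess (1.34, adjusted p = 0.0035).

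All 4 genes of the TFII-I family, transcription factors from the Williams syndrome region of chromosome 7, rose under each scaling tried, with a median of 0.69. Over all genes tested 35.2% rose, and 40.3% of protein-coding genes did. GTF2IRD1 was at 16.7, 17.3 and 16.7 CPM in siControl and 35.3, 30.7 and 30.1 CPM in siSON libraries (log2 fold change 0.92, SE 0.08, adjusted p = 1.30e-06). GTF2I was at 61.8, 64.8 and 64.2 CPM and then 95.0, 97.3 and 101 CPM (log2 fold change 0.62, SE 0.05, adjusted p = 1.31e-06). GTF2IRD2 and GTF2IRD2B rose by 0.65 and 0.72, but given the sequence they share these 2 values cannot be treated as separate. The count of GTF2I is uncertain as well, since 63.9% of its 50-base words also occur in transcripts of genes elsewhere, GTF2IP1 and GTF2IP4 among them.

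For 8 pairs of paralogs the balance between them was measured as the log2 ratio of their CPM values in each library, with a pseudocount of 0.5. With 3 libraries against 3 the smallest exact permutation p is 0.1, or 0.114 adjusted over the 8 pairs, so no pair could pass the threshold. The groups did not overlap for 7 pairs. In level, groups did not overlap for 75.1% of all genes and 79.9% of protein-coding genes tested. No such share was computed for ratios of other genes. MED12 over MED12L was at 5.63, 5.42 and 5.46 in siControl and 3.61, 4.09 and 3.26 in siSON libraries, a difference of -1.85. POLR3G over POLR3GL was at -0.77, -1.03 and -0.92 and then -2.29, -2.01 and -2.55, a difference of -1.38, which a pseudocount of 2 reduced to -0.84. The balance of both pairs was thus further from the first-named gene in every siSON library. MED13 over MED13L differed by -0.99, TAF9 over TAF9B by -0.70 and TAF6 over TAF6L by -0.51. TAF5 over TAF5L and GTF2IRD1 over GTF2I differed by 0.33 and 0.28 in the other direction, the latter subject to the sequence that GTF2I shares with other genes. TAF4 over TAF4B overlapped between groups, with a difference of -0.35 and an exact permutation p of 0.2. That difference was -0.16 without siSON replicate 1 and -0.55 without siSON replicate 2.

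**Figure D4:**
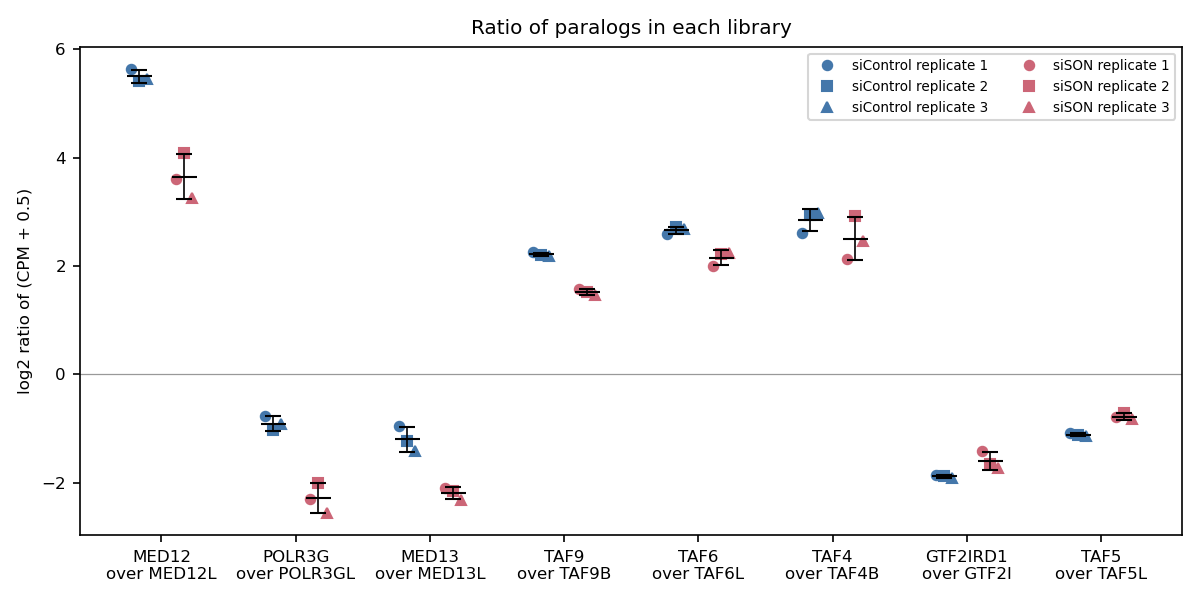
Log2 ratio of CPM (pseudocount 0.5) between the genes of 8 paralog pairs, with each library as a point (siControl blue, siSON red) and the group mean with its SD as a bar. The MED12 and POLR3G pairs show the largest gaps, at -1.85 and -1.38, and the TAF4 pair overlaps.

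Other genes of transcription, listed by role, give the setting of these values. Of 66 listed genes 65 were tested and 53 changed, 35 upward and 18 downward, with a median of 0.20. The share changed, 81.5%, was near the 77.4% of protein-coding genes. With library size alone 21 rose and 26 fell, and under cyclic loess 25 rose and 23 fell. TBP and its relative TBPL1 rose by 0.69 and 0.74, while TBPL2 had too few counts to test. CCNC, the cyclin of the Mediator kinase, rose by 0.79. CDK8, the kinase itself, was lower by 0.36, a call lost without siControl replicate 3 (-0.32, adjusted p = 0.0912), without siSON replicate 1 (-0.19, adjusted p = 0.0735) and under cyclic loess (-0.26, adjusted p = 0.107). CDK19, its paralog, was higher by 0.22, a call lost without siControl replicate 1 or 3 or siSON replicate 2 or 3 (adjusted p = 0.0520 to 0.158), with library size alone and under cyclic loess. Of the remaining TFIIH genes, ERCC2, a helicase, fell from 92.2, 93.1 and 103 CPM to 45.5, 48.1 and 50.1 CPM (log2 fold change -1.01, adjusted p = 1.30e-07), while ERCC3, CDK7, CCNH and MNAT1 were called higher, by 0.26 to 0.76. Of these rises that of CCNH was called under every scaling, that of ERCC3 was lost with library size alone and under cyclic loess, and those of CDK7 and MNAT1 were lost with library size alone. BRF2, which directs polymerase III to genes with upstream promoters, rose from 10.5, 10.4 and 10.8 CPM to 38.4, 34.3 and 37.7 CPM (log2 fold change 1.80, SE 0.08, adjusted p = 6.79e-09).

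Of 25 pausing and elongation genes 10 rose and 9 fell, where 35.2% of all genes tested rose and 36.5% fell. This split depended on the scaling. With library size alone the rises of SUPT16H, NELFE, LARP7 and ELL were not called. SSRP1, NELFA, TCEA2, HEXIM1 and AFF4 were then called lower. Changes of at least 2-fold were found for 7 of them, 28% against 29.3% of all genes and 27.3% of protein-coding genes. CDK9, the kinase that releases paused polymerase II, fell from 62.7, 62.1 and 66.2 CPM to 19.9, 20.4 and 19.9 CPM (log2 fold change -1.67, SE 0.06, adjusted p = 3.37e-09). Of its cyclins, CCNT2 rose by 1.23 and CCNT1 fell by 0.37 on the log2 scale. PAF1 and LEO1, both of the PAF elongation complex, fell by 1.89 and 1.49 on the log2 scale, and the elongation factor TCEA1 fell by 1.59. The other PAF complex genes did not move as 1: CDC73 fell by 0.52, CTR9 rose by 0.75 and RTF1 did not pass the test (0.12). NELFCD, of the pausing factor NELF, and ELL2, an elongation factor, rose by 1.30 and 1.07. Of the other NELF genes, NELFB fell by 0.58, NELFE was higher by 0.30 and NELFA did not pass the test (-0.05).

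Gene structure was set beside the changes as a description, since SON is known for introns with weak signals and counts per gene hold no record of intron removal. Across the 99 tested genes with an intron, the Spearman correlation of log2 fold change with median intron length was 0.09, and across 12699 protein-coding genes it was 0.25. With GC content it was -0.06 across the 100 genes and -0.21 across 13003 protein-coding genes. All of these are across genes, which share the same 6 libraries and are not independent replicates. The 9 genes that fell at least 2-fold had a median intron length of 1774 bases and a GC content of 54.1% (medians over genes). The 2427 protein-coding genes that fell so far had 825 bases and 57.2%. The 9 include POLR2J2 and both POLR2J3 genes, with intron medians of 2098.5, 1774 and 2098.5 bases. Both medians over the 9 are values of POLR2J3 genes, so these near-identical copies weigh on them. Single genes differed widely: 84.1% of MED12 introns were at most 500 bases and its median was 221.5 bases, and the medians of MED24 and TAF6 were 343.5 and 243 bases. POLR3G and GTF2H3, in contrast, had medians of 4539 and 1831.5 bases and fell as well. POLR2C and TAF1C had short introns, with medians of 317 and 141 bases, and rose.

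**Figure D5:**
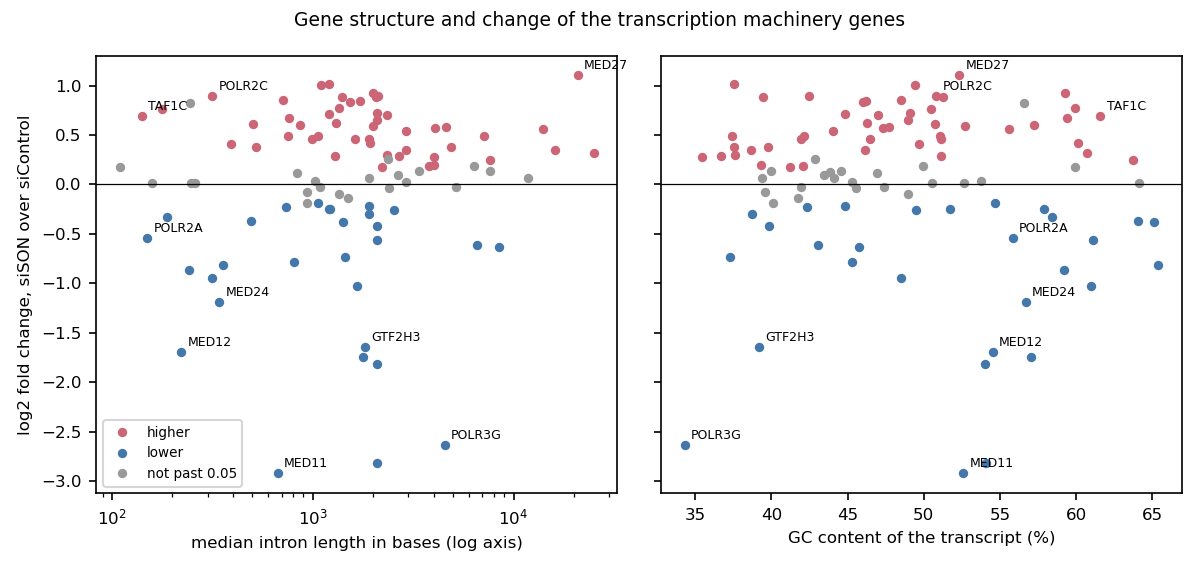
Log2 fold change (siSON over siControl) of each tested gene against its median intron length (left, log axis, bases) and the GC content of its transcript (right, percent), with red for genes called higher, blue for lower and grey for the rest, and some genes named. Genes with short introns, such as MED12, and with long introns, such as POLR3G, are both found among the falls; POLR2A is placed by a partial transcript model.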

How the data were processed

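RNA-seq libraries (Nugen Universal Plus mRNA-seq kit, per the labels' protocols) from 6 RPE-1 samples were analysed. The authors deposited raw read counts per gene, 1 column per library, not normalized. The submitters' processing notes name cutadapt 1.16, STAR 2.5.2a, featureCounts 1.6.2, DESeq2 1.28.1 and build hg38, without roles. The annotation release, strand setting and treatment of multi-mapping reads are not given in the sources used here, so overlapping and copied genes are uncertain. All 58735 identifiers were found in GENCODE 29 (GRCh38), which gave positions, introns and sequences.

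The counts were tested with edgeR 4.0.16 under R 4.3.3: filterByExpr (minimum count 10), TMM scaling, a robust quasi-likelihood fit on group over all 16591 genes tested, and Benjamini-Hochberg adjustment over all of them. Calls needed an adjusted p under 0.05, and single-gene adjusted p-values come from this test. SE is the absolute log2 fold change over the square root of F. CPM was computed from the counts with TMM-scaled library sizes, and the limit at 3 counts covers counting error only. No source names molecular identifiers, so reads may not be independent molecules. P-values measure only the spread between these samples, which may be technical. Genes named in full were SON, those changed at least 2-fold, the smallest adjusted p of each role group, a fixed set of core subunits, and paralogs; other genes are given by their fold change. The genes and lists were chosen with earlier results of these data known. Alternatives were DESeq2 1.42.0, limma-voom (limma 3.58.1), other scalings, filters, a replicate block and leaving out each library. The edgeR fit with TMM alone was tried on simulated data in which few genes changed, unlike here. That trial does not cover the alternatives or the choice of scaling. Splicing was not analysed here. The values of some genes, though counted in their groups, are not reported here.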

Additional observations from a re-analysis of the deposited data

How the results depend on the processing

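Of 811 comparisons of 58 named genes with 14 alternatives, 777 kept the call, 26 lost a call and 5 gained one. In the other 3 a called gene changed sign: GTF2B (-0.012) and MED14 (-0.021) with library size alone and MED14 (-0.0086) under cyclic loess. Sign changes of genes not called in the main fit were not counted. Such changes occurred, as for MED17 with library size alone (-0.099) and POLR2B without siSON replicate 1 (0.020). With library size alone 3 Mediator middle genes and 3 genes of TFIIA, TFIIB, TFIIE and TFIIF changed. Under cyclic loess 3 of the latter and 1 SAGA TAF changed. The cause of these differences was not tested. The POLR3G over POLR3GL difference was -1.63 with a pseudocount of 0.1 and -0.84 with 2. DESeq2 and RLE factors each called the same 77 genes of the machinery, and limma-voom called 76 of them. Leaving out 1 library gave 70 to 77 changed genes, 10 to 13 of them at least 2-fold. Without the 11 genes that overlap a neighbour on the same strand, 69 of 89 changed. This set and the set without copies were chosen after seeing the data.

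Same-numbered replicates correlated at 0.194, 0.0461 and 0.118 in their deviations from group means, each above all others (-0.138 to 0.0286). Whether libraries of the same number share a batch was not tested. What the numbers mean is not stated, and the edgeR fit on group did not take them as pairs. With the replicate number as a block, 77 genes of the machinery changed, with 0 calls lost and 0 gained. Depth limits genes with few counts, such as POLR2J2 with 0 to 32 counts per library.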
